A study of Mus musculus with 12 samples.

Results

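The bile acid synthesis enzymes described here are 10 genes chosen by symbol from the 38087 genes of the deposited count table: Cyp7a1, Cyp7b1, Cyp8b1, Cyp27a1, Cyp39a1, Hsd3b7, Akr1d1, Amacr, Baat and Slc27a5. Each symbol stood on 1 row, and all 10 genes were among the 14235 that passed the filter on low counts and were tested. Their values come from total RNA sequencing of liver from male C57BL/6j mice aged 13 to 16 weeks. All mice, controls included, were germ-free, meaning that they carried no microorganisms. For the 6 GH livers the mice received a dose of 50 µg each of growth hormone (GH), a recombinant human protein, by subcutaneous route. Mice of the 6 PBS livers received phosphate-buffered saline by that route. Injections were made 2 times daily over 5 days, at ZT 2 and at ZT 14, and livers were collected at ZT 2, where ZT is the number of hours since lights on. The labels do not say that the numbered samples are separate animals, so the p-values cover the variation among these samples. Whether that is variation among animals was not tested. No pair of libraries within a group agreed within counting noise.

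Hepatocytes turn cholesterol into bile acids along 2 main routes. In the classical route Cyp7a1, the rate-limiting enzyme, hydroxylates the sterol ring first, and Cyp8b1 adds the further hydroxyl group that makes cholic acid. In the alternative route mitochondrial Cyp27a1 oxidises the side chain first, and Cyp7b1 then hydroxylates the ring of the resulting oxysterol. Cyp39a1 does the same for another oxysterol. Hsd3b7 and Akr1d1 then rework the ring of both routes' products, Amacr turns over the side chain's configuration before it is shortened in peroxisomes, and Slc27a5 and Baat activate bile acids and join them to an amino acid. GH reaches hepatocytes through its receptor and STAT5B, and its sex-specific release pattern is known to set male-biased expression of Cyp7b1. Gut bacteria deconjugate and dehydroxylate bile acids, a step that germ-free mice lack.

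Of the 10 enzymes 5 are cytochromes P450, which hold a haem iron on a cysteine inside a conserved stretch, and they include Cyp7a1 and Cyp7b1, the enzymes with the largest changes below. To show the site these relatives share, the coding bases of that stretch are given for the 4 P450 genes that match the family's usual pattern, with the cysteine codon in capitals, from GENCODE M21 transcripts (assembly GRCm38, the same as mm10). Each is 30 bases, read 5′ to 3′ on the gene's strand.
Cyp7a1, chr4:6268386-6268415, minus strand: tttggatcaggagctacaataTGTcctgga
Cyp7b1, chr3:18072634-18072663, minus strand: tttggactcggaacaagcaaaTGTccaggg
Cyp27a1, chr1:74737320-74737349, plus strand: ttcggctatggggttcggtctTGCctgggt
Cyp39a1, chr17:43731982-43732011, plus strand: tttggaggcgggaagttccagTGTcctgga
Cyp8b1 had 0 matches to that pattern. Over the whole coding sequences the longest identical run was 15 bases between Cyp7a1 and Cyp7b1, and it lay between 9 and 15 bases in all 10 pairs of the 5 genes. Reads were 125 cycles long. Untranslated parts and other relatives were not compared, and how reads of these genes map was not tested. None of the 10 enzymes overlapped another gene of the table on the same strand by as much as 50 exonic bases.

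The 12 libraries held 19523104 to 23278931 exonic counts each. The labelled tissue was borne out by hepatocyte markers such as Alb, whose list summed to 91091 to 108770 CPM (counts-per-million after TMM scaling) in PBS and to 71835 to 96402 in GH. Of 42 tested markers in 7 lists of hepatocytes, their zones and other liver cells 1 was called, against 4.79% of all 14235 tested genes. It was the stellate cell gene Dcn, which fell from 161 ± 9.40 to 124 ± 8.39 CPM (SD, n = 6; adjusted p = 0.00296). The summed stellate list still overlapped between groups (355 to 411 CPM in PBS, 325 to 392 in GH), and its part in the results below was not tested. In the other 6 tested lists 0 markers were called by edgeR, and the summed levels of the groups overlapped. In them 6 markers had an unadjusted p under 0.05, against 2702 of all 14235 genes. DESeq2, which called 1072 of the 14235 genes, also called the hepatocyte genes Alb and Cps1 lower and the bile duct gene Sox9 higher in GH. Their part in the results was not tested either. The 6 lymphocyte markers were too low to test, with 34 to 102 counts over all 12 libraries. In whole liver, fewer cells of a type and less RNA per cell cannot be told apart.

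Cyp7a1 and Akr1d1 were lower, and Cyp7b1 and Amacr higher, in the livers labelled GH than in PBS. These were 4 of the 10 enzymes at a Benjamini-Hochberg adjusted p under 0.05 in edgeR's quasi-likelihood test over all 14235 genes, of which 4.79% were called (2.27% higher and 2.52% lower). The same 4 genes were the ones in which the 6 GH and the 6 PBS values did not overlap, as in 3.18% of all tested genes (1.45% with GH higher and 1.72% with GH lower). The other 6 enzymes did not pass. The median log2 fold change over the 10 was -0.04, against 0.00 over all tested genes, since the changes went both ways. Among all calls 47.4% were higher in GH, or 24.3% with scaling by library totals alone, and the directions of the 4 enzymes were the same under that scaling. The plot of the enzymes by library and the plot of fold changes show these values.

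**Figure D1:**
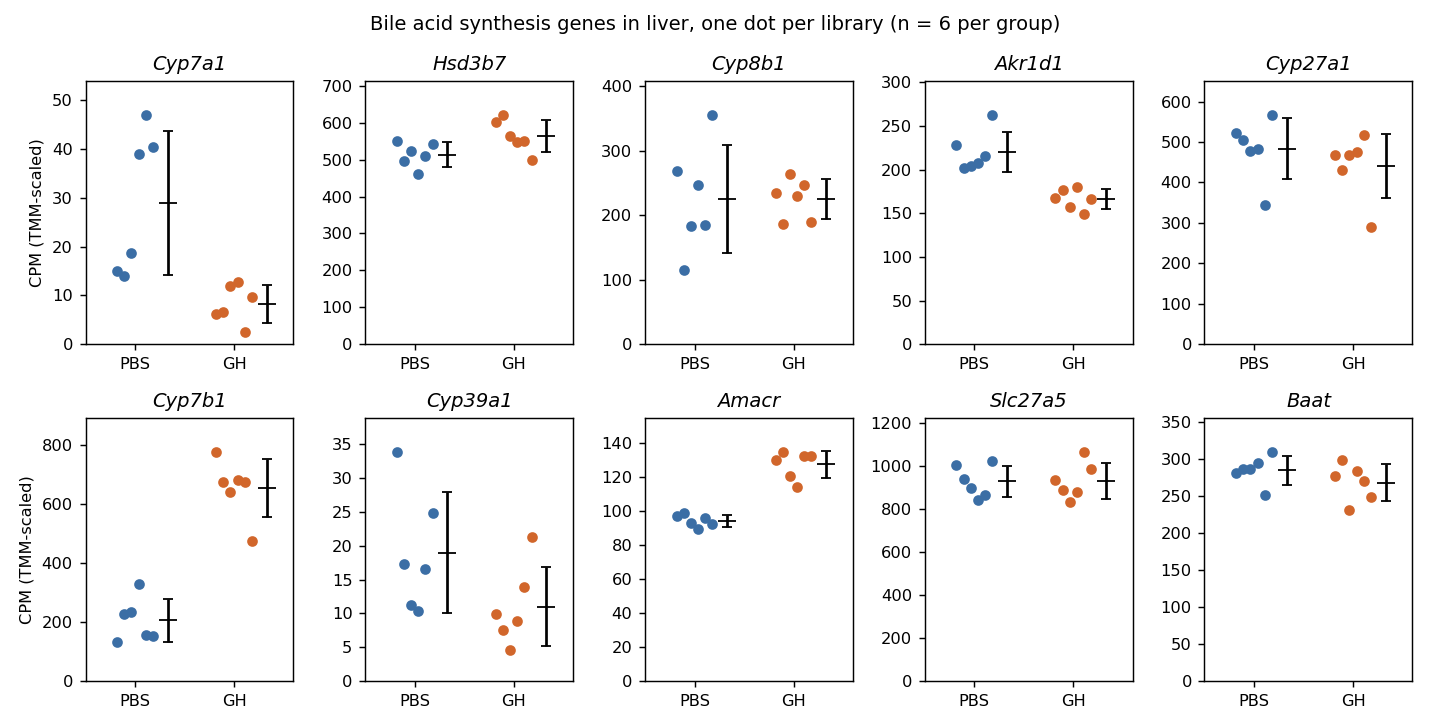
CPM (counts-per-million after TMM scaling, vertical axis from 0) of the 10 enzymes in the 6 PBS and the 6 GH libraries, 1 dot per library in replicate order, with the mean and SD beside the dots. Cyp7a1 and Akr1d1 lie lower and Cyp7b1 and Amacr higher in GH with no overlap, while the other 6 enzymes overlap.

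**Figure D2:**
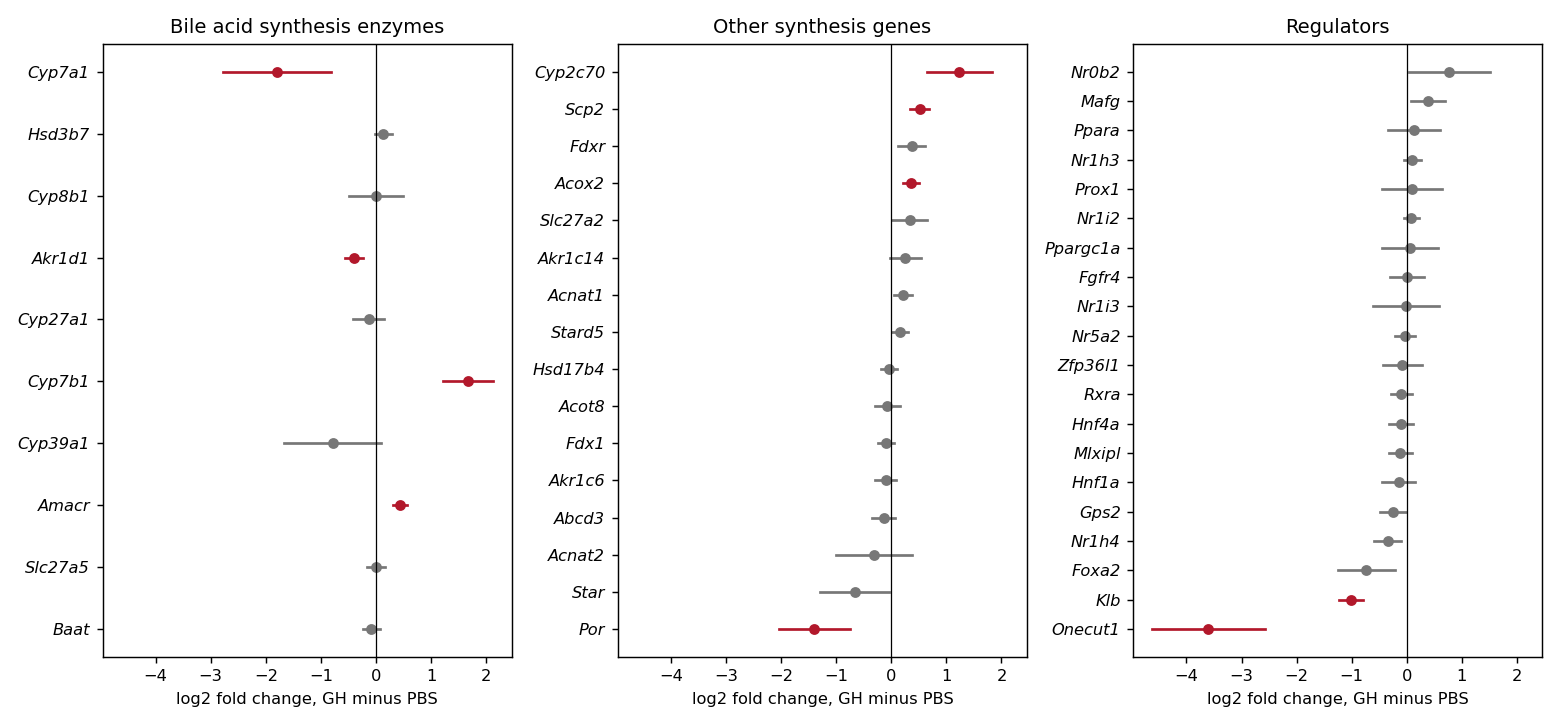
Log2 fold change, GH minus PBS (horizontal axis), with its 95% confidence interval for the 10 enzymes, 16 other synthesis genes and 20 regulators. Red marks an adjusted p under 0.05: 4 enzymes, 4 other synthesis genes and 2 regulators.

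Cyp7a1 (chromosome 4, 6265612 to 6275633) opens the classical route by hydroxylating cholesterol itself. Its PBS values ran from 13.9 CPM (replicate 2) through a median of 28.9 to 46.9 (replicate 5), and its GH values from 2.56 (replicate 5) through 8.10 to 12.7 (replicate 4). Every GH library was thus below every PBS library, but the PBS libraries themselves lay in a lower trio (13.9, 14.9 and 18.8 CPM, replicates 2, 1 and 3) and a higher trio (39.0, 40.4 and 46.9 CPM, replicates 4, 6 and 5). The log2 fold change was -1.80 with an SE of 0.44 (n = 6; adjusted p = 0.0446; 95% interval -2.78 to -0.82), or 3.49-fold lower. Of the 359 genes called lower in GH it had the 19th largest change, yet it was 638th by p among all genes, and its CV was 50.7% in PBS and 46.7% in GH. The call held in 2 of 12 fits with 1 library left out, those without PBS replicate 1 or 2, and in the other 10 the adjusted p lay between 0.0573 (without GH replicate 4) and 0.101 (without GH replicate 1), with log2 fold changes from -1.97 to -1.61 over all 12. The call was also lost without the filter on low counts (adjusted p = 0.0776) and with limma voom (0.0728), and held with DESeq2 (0.00138).

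Cyp7b1 (chromosome 3, 18071950 to 18243338) hydroxylates the oxysterols of the alternative route. It had 133 CPM at the lowest (replicate 1), 193 at the median and 330 at the highest (replicate 4) in PBS, against 475 (replicate 6), 676 and 777 (replicate 1) in GH. Even the lowest GH library was above the highest PBS one. The log2 fold change was 1.67 with an SE of 0.21 (n = 6; adjusted p = 0.000935), which is 3.18-fold, the 20th largest among the 323 genes called higher. It stayed between 1.57 and 1.85 in the 12 fits with 1 library left out, all of them calls. The libraries also drew together on the relative scale: the CV was 35.7% in PBS and 15.1% in GH, a difference that was not tested.

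Cyp27a1 (chromosome 1, 74713574 to 74737892), the mitochondrial enzyme that supplies Cyp7b1 with substrate, did not follow it. Its values were 343 to 566 CPM in PBS (median 495) and 290 to 517 in GH (median 468), and the groups overlapped almost fully. The log2 fold change was -0.13 ± 0.13 (SE, n = 6; adjusted p = 0.654), with a 95% interval from -0.41 to 0.15 that lies wholly below the interval of Cyp7b1 (1.21 to 2.13). The lowest library of each group, PBS replicate 5 and GH replicate 6, stood well below the other 5. Cyp39a1 (chromosome 17, 43667425 to 43751431), the oxysterol hydroxylase of a minor route, ran from 10.4 to 33.9 CPM in PBS (median 16.9) and from 4.58 to 21.3 in GH (median 9.35). Of its 6 GH libraries 4 were below the lowest PBS library, while GH replicate 6 was above the PBS median. Its log2 fold change of -0.79 ± 0.40 did not pass (adjusted p = 0.322; 95% interval -1.67 to 0.09), nor did the -1.09 found without GH replicate 6 (adjusted p = 0.136).

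Cyp8b1 (chromosome 9, 121914356 to 121916305), whose activity sets the share of cholic acid, had equal means: 225 ± 83.5 CPM in PBS and 225 ± 31.2 in GH (SD, n = 6). The PBS libraries spread from 114 (replicate 2) to 355 (replicate 6), and all 6 GH libraries, from 187 to 263, lay inside that range. The log2 fold change was 0.00 ± 0.22 (SE; adjusted p = 0.997), and its 95% interval, -0.49 to 0.49, excludes a change as large as that of Cyp7a1. Thus the opening enzyme of the classical route fell and the branch enzyme showed no detectable change.

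Hsd3b7 and Akr1d1 act in turn on the sterol ring in both routes. Hsd3b7 (chromosome 7, 127800604 to 127803802), a dehydrogenase, had 460 to 551 CPM in PBS (median 516) and 500 to 620 in GH (median 557), with 3 GH libraries above every PBS library. Its log2 fold change was 0.13 ± 0.07 (SE, n = 6; adjusted p = 0.328). Akr1d1 (chromosome 6, 37530173 to 37568815), the reductase that follows, ran from 202 (replicate 2) through 212 to 262 CPM (replicate 6) in PBS and from 150 (replicate 5) through 167 to 181 (replicate 4) in GH. All GH libraries were below all PBS libraries by a narrow margin. Its log2 fold change was -0.40 with an SE of 0.08 (n = 6; adjusted p = 0.00626), or 1.32-fold lower, and the call held in each of the 12 fits with 1 library left out.

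Amacr (chromosome 15, 10981756 to 10996626), the racemase of the side chain steps, had the smallest p of the 10 enzymes. Its PBS values lay within 89.0 to 98.6 CPM (median 94.1) and its GH values within 114 to 134 (median 131). The gap between the groups was wider than the range inside PBS, although the change was moderate, 0.43 ± 0.06 on the log2 scale or 1.35-fold (SE, n = 6; adjusted p = 0.000676). The PBS CV of 3.80% was the lowest of the 10 enzymes. Slc27a5 (chromosome 7, 12988346 to 12998192), the bile acid-CoA ligase of conjugation, had 843 to 1024 CPM in PBS and 836 to 1067 in GH (medians 920 and 912). Its log2 fold change was 0.00 ± 0.08 (95% interval -0.16 to 0.17; adjusted p = 0.989). Baat (chromosome 4, 49489422 to 49506557), which joins the activated bile acid to taurine or glycine, had 250 to 309 CPM in PBS and 230 to 298 in GH (medians 286 and 273), with a log2 fold change of -0.09 ± 0.07 (95% interval -0.24 to 0.07; adjusted p = 0.591). Both conjugation genes overlapped between the groups throughout, and their intervals bound any change well below those of Cyp7a1 and Cyp7b1.

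The balance of the routes was described per library as the mean log2 CPM of Cyp7a1 and Cyp8b1 minus that of Cyp27a1 and Cyp7b1, with no test, since these genes were chosen with their results known. It ran from -3.09 (replicate 2) through -2.04 to -1.30 (replicate 6) in PBS and from -4.53 (replicate 5) through -3.66 to -3.11 (replicate 6) in GH. The groups did not overlap, but PBS replicate 2 and GH replicate 6 were only a few hundredths apart. The PBS mean of -2.05 (SD 0.690, n = 6) and the GH mean of -3.70 (SD 0.534, n = 6) lay -1.65 apart, GH minus PBS. The difference was seen in Cyp7a1 and Cyp7b1 and not in the other gene of each route. The log2 difference of Cyp8b1 and Cyp27a1 was -1.17 ± 0.529 in PBS and -0.96 ± 0.207 in GH (SD), while that of Cyp7a1 and Cyp7b1 went from -2.93 ± 0.914 to -6.44 ± 0.936. In plain ratios, Cyp7b1 CPM exceeded Cyp7a1 CPM 3.35-fold to 16.5-fold in PBS and 49.3-fold to 264-fold in GH, ratios of read counts that are not corrected for length. Within the alternative route the ratio of Cyp7b1 to Cyp27a1 CPM was 0.254 to 0.683 in PBS and 1.31 to 1.66 in GH.

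**Figure D3:**
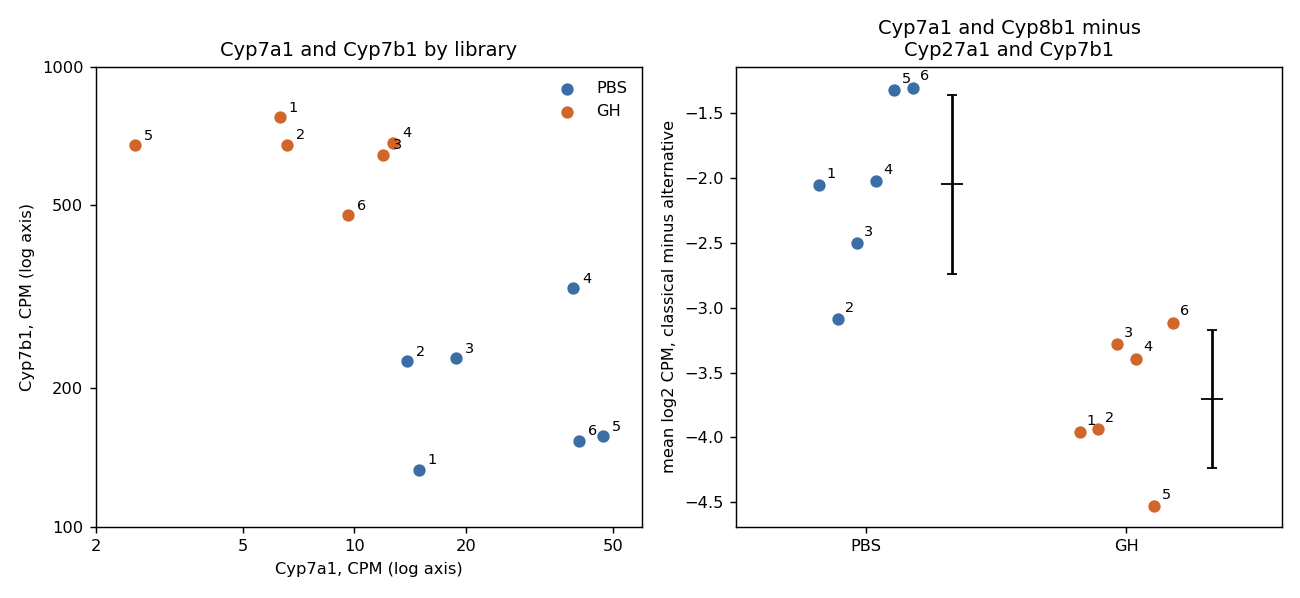
Left, Cyp7b1 against Cyp7a1 in each library (CPM, both axes logarithmic, numbers are replicates). Right, the balance of classical minus alternative route genes per library with mean and SD (mean log2 CPM), -3.09 to -1.30 in PBS and -4.53 to -3.11 in GH. GH libraries form a separate group with less Cyp7a1 and more Cyp7b1.

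Levels of different genes were compared as CPM per kb of exon. In PBS the order was Slc27a5 (381 ± 30.4), Cyp27a1 (222 ± 34.8), Hsd3b7 (186 ± 11.9), Baat (146 ± 9.96), Cyp8b1 (116 ± 42.8), Cyp7b1 (95.1 ± 33.95), Akr1d1 (76.1 ± 7.87), Amacr (36.1 ± 1.37), Cyp7a1 (6.95 ± 3.53) and Cyp39a1 (6.22 ± 2.93 CPM per kb; SD, n = 6). Slc27a5 stood above all others, and Amacr below Akr1d1, in every PBS library. The ranges of Baat, Cyp8b1 and Cyp7b1 overlapped each other, as did those of Cyp27a1 and Hsd3b7, and of Cyp7a1 and Cyp39a1. Cyp8b1 also overlapped Hsd3b7, Cyp27a1 and Akr1d1, Baat overlapped Cyp27a1, and Cyp7b1 overlapped Akr1d1. In GH Cyp7b1 moved from the sixth place to the second (302 ± 45.7), where it overlapped with Slc27a5, Hsd3b7 and Cyp27a1 and no more with Baat or Cyp8b1, and Cyp7a1 from the ninth to the tenth (1.99 ± 0.927). The rate-limiting enzyme was thus the scarcest or nearly the scarcest transcript of the 10 in both groups.

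**Figure D4:**
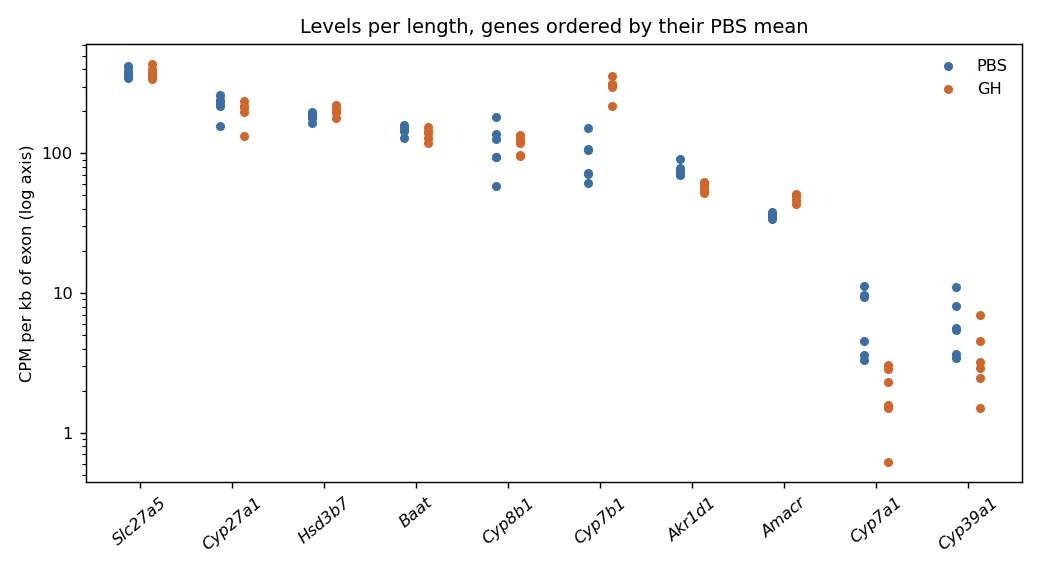
CPM per kb of exon (logarithmic axis) of each enzyme in the 6 PBS and 6 GH libraries, ordered by the PBS mean. Cyp7b1 rises from the middle of the order to 302 CPM per kb in GH, and Cyp7a1 and Cyp39a1 stay below all other enzymes.

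Among themselves the enzymes did not vary as a block. After each group's mean was subtracted, Pearson r of log2 CPM over the 12 libraries lay between -0.70 and 0.84 across the 45 pairs, with a median of 0.12, and 0 pairs passed after Benjamini-Hochberg adjustment (3 had an unadjusted permutation p under 0.05). The closest pair was Cyp39a1 and Slc27a5 (r = 0.84, permutation p = 0.00213, adjusted 0.0958; rho = 0.85, p = 0.00217, adjusted 0.0976), with r = 0.84 when the 2 libraries farthest from the median were left out. Cyp7a1 and Cyp8b1 were weakly related (r = 0.28, permutation p = 0.414, adjusted 0.684; rho = 0.18, p = 0.597; r = 0.13 without 2 libraries).

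Cyp7a1 is known to follow the circadian clock, and the livers differed in clock gene levels although all carry the same ZT label. Of 15 tested clock genes 0 were called by edgeR or DESeq2, against 4.79% (edgeR) and 1072 (DESeq2) of all 14235 genes. An unadjusted edgeR p under 0.05 was found for 0 of the 15, against 2702 of all genes. The median log2 fold change of the 15 was 0.11. Within the groups, however, Dbp, a clock output activator, was at 32.2 and 22.3 CPM in PBS replicates 1 and 2 and at 0.604 to 0.953 in the other 4. In GH it was at 20.96 and 8.61 CPM in replicates 5 and 6 and at 0.912 to 2.46 in the others. The clock repressor gene Nr1d1 ran from 0.976 (replicate 5) to 54.8 CPM (replicate 1) in PBS and from 7.01 (replicate 3) to 45.1 (replicate 5) in GH. PBS replicates 1 and 2 were the 2 PBS libraries lowest in Cyp7a1, PBS replicate 5 was the highest, and GH replicate 5 was the lowest of all 12. GH replicates 3 and 4, lowest of GH in Nr1d1 (7.01 and 8.30 CPM), were highest of GH in Cyp7a1 (12.0 and 12.7 CPM). Other libraries did not keep this order. GH replicate 6, second highest of GH in Nr1d1 (31.2 CPM), had 9.62 CPM of Cyp7a1, above the GH median. PBS replicate 3, low in Nr1d1 (6.96 CPM) and Dbp (0.821 CPM), had 18.8 CPM of Cyp7a1. Whether the clock had a part in the Cyp7a1 levels was not tested. After subtraction of group means, Cyp7a1 and Nr1d1 had r = -0.68 (permutation p = 0.0150, adjusted 0.131 over 20 relations of the enzymes with these genes) and rho = -0.78 (p = 0.00632, adjusted 0.0632), and r = -0.60 without the 2 libraries farthest from the median of Nr1d1. For Dbp the libraries fell into separate clusters, so no correlation is given.

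With the Nr1d1 level as a covariate, a fit chosen after these values were seen, the log2 fold change of Cyp7a1 was -1.67 (adjusted p = 0.0224), and with Dbp it was -1.68 (adjusted p = 0.00927). The clustering of the Dbp levels is a caution for the fit with Dbp too. The changes of Cyp7b1, Akr1d1 and Amacr were 1.66, -0.40 and 0.43 with the Nr1d1 covariate, all of them calls. The group difference in Cyp7a1 was thus slightly smaller than the -1.80 found without a covariate, and the reason was not tested.

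**Figure D5:**
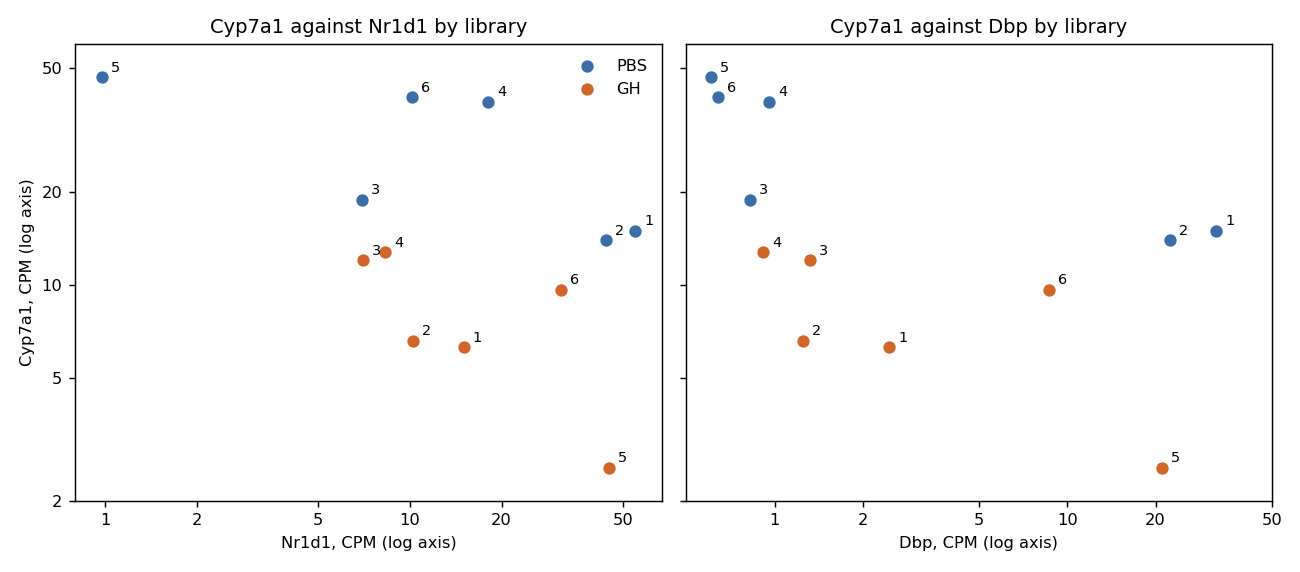
Cyp7a1 against the clock genes Nr1d1 (left) and Dbp (right) in each library (CPM, all axes logarithmic, numbers are replicates). Dbp is at 8.61 CPM or more in 4 libraries and at 2.46 or less in the other 8, and every GH library lies below every PBS library in Cyp7a1.

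Of 16 other tested genes of bile acid synthesis 3 rose and 1 fell, against 2.27% called higher and 2.52% called lower over all genes. Their median log2 fold change was 0.06, and 12 did not pass. At an unadjusted edgeR p under 0.05 there were 7 higher and 2 lower of the 16, the 4 calls among them. Over all 14235 genes 2702 had such a p. Scp2, a gene that encodes both the peroxisomal thiolase completing side chain shortening and the shorter sterol carrier protein, which these gene counts do not separate, rose from 2201 to 2941 CPM in PBS (median 2525) to 3171 to 4004 in GH (median 3687), without overlap (log2 fold change 0.52, SE 0.08, n = 6; adjusted p = 0.00156). Acox2, the oxidase that opens that shortening, rose from 249 to 288 CPM (median 266) to 310 to 368 (median 352), also without overlap, by 0.36 ± 0.07 (adjusted p = 0.00542). Other genes of the list did not pass and went both ways. Hsd17b4, the enzyme between Acox2 and the thiolase, stood at -0.05 ± 0.07 log2 units (SE, n = 6; adjusted p = 0.765), Abcd3 at -0.14 ± 0.10 (0.474) and Acot8 at -0.07 ± 0.11 (0.790). Slc27a2 stood at 0.34 ± 0.15 (0.233), Acnat1 at 0.22 ± 0.08 (0.128) and Acnat2 at -0.32 ± 0.31 (0.642). For Slc27a2 and Acnat1 all 6 GH libraries were above the PBS mean, with unadjusted edgeR p of 0.0390 and 0.0122.

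Cyp2c70, the mouse enzyme that makes muricholic acids, had 501 to 991 CPM in PBS (median 719) and 611 (replicate 6) to 2067 (replicate 1) in GH (median 1870). Apart from GH replicate 6 all GH libraries were above all PBS libraries. Its change was 1.23 ± 0.27 (SE, n = 6; adjusted p = 0.0245), and the call was lost without PBS replicate 6 or any of GH replicates 1, 2, 3 and 4 (adjusted p up to 0.0550), while without GH replicate 6 the change was 1.41. It was also lost without the filter on low counts (adjusted p = 0.0556) and with limma voom (0.0501), and held with DESeq2 (0.000508). Cyp2c genes have near relatives, so its counts are uncertain. Por, the reductase that passes electrons to microsomal P450 enzymes such as Cyp7a1, Cyp7b1 and Cyp8b1, went from 77.9 to 162 CPM in PBS (median 108) to 24.8 to 84.0 in GH (median 36.9), with GH replicate 6 the highest. It fell by 1.40 ± 0.29 (adjusted p = 0.0216), a call lost without any of GH replicates 1, 3, 4 and 5 (adjusted p up to 0.0543). The redox partners of mitochondrial Cyp27a1, Fdx1 and Fdxr, stood at -0.09 and 0.37 log2 units, GH minus PBS, and did not pass (adjusted p = 0.505 and 0.0875).

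Regulators of bile acid synthesis had 20 tested members, of which 0 rose and 2 fell in edgeR, against 2.27% and 2.52% of all genes, with a median log2 fold change of -0.06. At an unadjusted edgeR p under 0.05 there were 2 higher and 5 lower, and DESeq2 called 0 higher and 3 lower, the third being Foxa2. Over all 14235 genes 2702 had an unadjusted edgeR p under 0.05, and DESeq2 called 506 higher and 566 lower. Klb, the coreceptor through which gut-derived FGF15 represses Cyp7a1, fell from 48.4 to 71.1 CPM in PBS (median 60.7) to 27.1 to 36.0 in GH (median 28.6). Its log2 fold change was -1.02, SE 0.10 (n = 6; adjusted p = 2.23e-05). The groups did not overlap, and the call held in all 12 fits with 1 library left out. Its partner receptor gene Fgfr4 was at 13.7 to 30.6 CPM in PBS and 17.5 to 23.4 in GH, with a log2 fold change of 0.01 ± 0.15 (adjusted p = 0.986). Onecut1, which encodes the liver factor HNF6, a known activator of Cyp7a1, had 6.11 to 37.0 CPM in PBS (median 19.9) and 1.23 to 2.29 in GH (median 1.58). Its change was -3.60 ± 0.46 (adjusted p = 0.00167), with the caution that Gm20649 shares 2171 exonic bases with it on the same strand.

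The bile acid receptor pathway itself showed values that did not pass. Nr1h4, which encodes the bile acid receptor FXR, had 65.3 to 106 CPM in PBS (median 91.3) and 50.6 to 79.0 in GH (median 72.6), with a log2 fold change of -0.35 ± 0.12 (SE, n = 6; adjusted p = 0.113). It passed without PBS replicate 5 (-0.43, adjusted p = 0.0202). Nr0b2, the FXR target that encodes the repressor SHP, spread from 14.1 to 56.0 CPM in PBS (median 28.9) and from 41.0 to 85.5 in GH (median 53.4), with a log2 fold change of 0.77 ± 0.33 (adjusted p = 0.240). Nr5a2 and Hnf4a, whose products LRH-1 and HNF4A activate Cyp7a1 and Cyp8b1, had log2 fold changes of -0.03 ± 0.09 and -0.11 ± 0.10 (adjusted p = 0.909 and 0.624). Among 13 tested transporters of bile acids and sterols 0 were called by edgeR or DESeq2, with a median of -0.02. Over all 14235 genes 4.79% were called by edgeR and 1072 by DESeq2. An unadjusted edgeR p under 0.05 was found for 2702 of all genes and for 1 of the 13 transporters. That gene was Slc10a1, the uptake transporter NTCP, named after its value was seen, with a log2 fold change of -0.46 ± 0.17 (adjusted p = 0.169).

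The genes whose log2 CPM moved most like an enzyme's after subtraction of group means were searched among 12850 genes with a mean of at least 1 CPM, as a description over 12 libraries without a test. For Cyp7a1 they were Gm16157 (r = 0.95), Pde3b (0.93), Anp32e (0.91), 4930572J05Rik (0.91) and Trim2 (0.89). Their log2 fold changes between the groups lay between -0.26 (Anp32e) and 0.09 (4930572J05Rik) with adjusted p from 0.248 to 0.892, so the difference of Cyp7a1 between the groups was not seen in them. For Cyp7b1 they were the complement gene C6 (r = 0.93), the urinary protein gene Mup21 (0.93), Capn8 (0.91), a U1 RNA gene, U1_ENSMUSG00000096391 (0.91), and Moxd1 (0.90). C6, Mup21, Capn8 and the U1 gene were called higher in GH (by 1.18, 1.46, 2.06 and 1.57), and the value of Moxd1, 2.91, did not pass (adjusted p = 0.166). Mup and U1 genes have near-identical copies, so their counts are uncertain.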

How the data were processed

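RNA of 12 liver samples from germ-free male mice was sequenced from both ends for 125 cycles after depletion of ribosomal RNA with a stranded kit, per the labels' protocols. The authors deposited raw counts of exonic reads per gene, without normalization. The submitters' processing notes list STAR 2.4.0i and mm10. Not stated in those sources are the counting program, gene models, strand setting and handling of multiple matches. The test was edgeR 4.0.16 in R 4.3.3 (filterByExpr with a minimum count of 10, TMM scaling, robust quasi-likelihood F test, two-sided, group as the only term, all 12 libraries), and p-values were adjusted by Benjamini-Hochberg over 14235 genes with a threshold of 0.05. The SE of a log2 fold change is its size over the root of F. Log2 CPM used a prior count of 2, and within-group relations used 100000 shuffles inside the groups. Of the identifiers, 36308 matched GENCODE M21, which gave coordinates, exon lengths and coding sequences. A symbol on more than 1 row (Mafg) was taken by its GENCODE identifier. The fit was tested on simulated counts. Alternatives used DESeq2 1.42.0, limma 3.58.1, other scalings, no filter, the replicate number as a block and libraries left out. Named were the 10 enzymes, a fixed set of regulators and clock genes, the called members of each list (at most 4) and the 5 most alike genes. Members and lists were chosen with earlier results of these data known. Hsd17b4, Abcd3, Acot8, Acnat1, Acnat2, Slc27a2, Fdx1, Fdxr, Foxa2, Slc10a1, Dcn, Alb, Cps1 and Sox9 were named after their values were seen. No pair of libraries within a group agreed within counting noise (chi-square per degree of freedom 8.95 to 75.8).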

Additional observations from a re-analysis of the deposited data

Results flagged for a closer look

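In 48 groups of 6 libraries, 3 held a library far from its fellows. All 3 were GH replicate 6, so the 3 flags are not independent, and their number was not compared with chance. Cyp2c70 was at 611 CPM there, with the nearest GH library at 1777. Nr1h4 was at 50.6 CPM, with the nearest at 69.0. Por was at 84.0 CPM, with the nearest at 39.7. Among the 10 enzymes no library stood apart by this measure, although GH replicate 6 was the lowest GH library in Cyp7b1 (475 CPM), Cyp27a1 (290 CPM) and Hsd3b7 (500 CPM) and the highest in Cyp39a1 (21.3 CPM).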

How the results depend on the processing

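The count of called enzymes, 4, was the same under DESeq2, 3 other scalings and both covariate fits chosen after seeing the data (Nr1d1 or Dbp level), and it lay between 3 and 4 with 1 library left out. The enzyme lost was Cyp7a1 in each such fit, and also without the filter (adjusted p = 0.0776), with limma voom (0.0728) and without GH replicate 6 and PBS replicate 5 together (0.0916). The exact permutation test over all assignments of the libraries called 0 genes, 0 enzymes, 0 other synthesis genes and 0 regulators. All 4 called enzymes had its smallest possible p, 0.00216, which became 0.0682 after adjustment over all genes, so that this test could call nothing here. Over all genes 682 were called, 1072 with DESeq2, 1022 without GH replicate 6 and PBS replicate 5, and 434 to 854 with 1 library left out (447 without GH replicate 1, 434 without GH replicate 2). The other synthesis genes called ran from 2 (without GH replicate 1, 3 or 4) to 5 in those fits and the regulators from 2 to 3. Of the transporters 0 to 1 were called in them (1 without PBS replicate 5), and 1 (Slc10a1) without GH replicate 6 and PBS replicate 5 together. The balance difference of -1.65 ran from -1.86 (without PBS replicate 2) to -1.49 (without GH replicate 5). Of the enzymes without a call, 2 changed sign. Cyp8b1 was at 0.076 with limma voom, 0.077 in the replicate block fit, 0.074 in the permutation test, 0.015 with the Dbp covariate and -0.14 to 0.17 with 1 library left out. Slc27a5 was at -0.056 with library totals alone, -0.04 without GH replicate 6 and PBS replicate 5, -0.014 with the Nr1d1 and -0.0071 with the Dbp covariate and -0.039 to 0.033 with 1 library left out. The shared replicate numbers did not pair the libraries: same-numbered libraries had correlations of -0.17 to 0.16, and 1 of 6 GH libraries matched its own number best. With the replicate number as a block 391 genes were called, and the adjusted p was 0.140 for Cyp7a1 and 0.0948 for Cyp2c70, while the other 3 enzymes passed. The cause of these shifts was not tested. Depth limits Cyp7a1 (54 to 1010 counts per library) and Cyp39a1 (94 to 782) most.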
